A study of Homo sapiens with 4 samples.

Results

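A group of 10 genes of the endoplasmic reticulum (ER) stress response was followed in A549 cells, a human lung adenocarcinoma cell line, after short exposure to embelin, a benzoquinone with a long alkyl chain. They were HSPA5, HSP90B1, CALR, PDIA4, SDF2L1, HYOU1, XBP1, ERN1, HERPUD1 and EDEM1, chosen because they are ER chaperones, ER-associated degradation genes, or parts of the IRE1 branch. A probe was taken where its gene name was one of these symbols or its accession was a RefSeq transcript of one of them, which gave 16 of the 50238 non-control probes on the array, for all 10 genes. Of these, 14 stood well above background in the control pair of arrays, the embelin pair or both, and entered the test, with at least 1 for every gene. The series as a whole had 26145 such probes, for 17668 genes or transcripts.

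RNA came from cells given 15 µM embelin for 4 h and from untreated controls of the same time, with 2 samples in each group and 1 single-colour Agilent array per sample. Both groups had been moved to low-serum medium before treatment, and whether the controls received the solvent is not given in the sources used here. The labels number the replicates but do not say that they were separate cultures, so the p-values measure the spread between these samples, which may be technical. All 4 arrays lay on 1 slide, with the controls at positions 4 and 1 and the embelin samples at positions 2 and 3. Control replicate 1 and embelin replicate 2 had 66.7% and 66.4% of probes well above background, against 50.3% and 51.2% for control replicate 2 and embelin replicate 1. Across probes, which are not independent replicates, the control pair correlated at 0.972 and the embelin pair at 0.971. The defining markers of an epithelial line were present: all 10 epithelial and A549 markers on the list were measured, with KRT18 (a keratin of simple epithelia) between 17.6 and 17.8 log2 units in every sample and none of the 10 called. Among markers of blood and endothelial cells, CD14 and CD3E passed the filter, and PTPRC, PECAM1, CDH5, VWF and HBB did not.

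Unfolded proteins in the ER lumen are sensed by ATF6, IRE1 (encoded by ERN1) and PERK. ATF6 is cut by proteases in the Golgi and its freed fragment switches on chaperone genes, while active IRE1 cuts the XBP1 mRNA so that a strong transcription factor is made from it, which raises folding and degradation genes. PERK phosphorylates the translation factor eIF2α, which slows protein synthesis while favouring the translation of ATF4 and, downstream of it, CHOP (DDIT3). HSPA5, also called BiP or GRP78, is the lumen's Hsp70 and the classical readout of ATF6 and XBP1 activity.

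Promoters of 7 of the 10 genes carry letters that ATF6 and XBP1 are known to bind, and these are printed below. The array values did not enter this search. The genes were chosen as parts of the ER stress response, so matches among them are not independent of that choice. All sequences are from RefSeq, GRCh38.p14, read 5′ to 3′ along the gene's strand, and each window covered 250 bases before to 50 after the start of transcription. Windows were found for all 10 genes. The motifs searched on both strands were the ER stress element ERSE (CCAAT, then 9 bases of any kind, then CCACG), ERSE-II (ATTGG, 1 base of any kind, then CCACG) and the UPRE core (TGACGTGG). Capitals mark the matches below, and a match on the other strand is shown as its reverse complement.
HSPA5, ERSE, chr9:125241379-125241421, minus strand: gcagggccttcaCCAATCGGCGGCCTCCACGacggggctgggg
HSP90B1, ERSE, 2 matches, chr12:103930204-103930351, plus strand: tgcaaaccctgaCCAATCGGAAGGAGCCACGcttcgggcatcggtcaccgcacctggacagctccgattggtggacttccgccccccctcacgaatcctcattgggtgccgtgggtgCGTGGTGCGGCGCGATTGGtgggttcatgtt
CALR, ERSE, chr19:12938372-12938414, plus strand: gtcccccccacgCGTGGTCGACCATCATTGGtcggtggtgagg
XBP1, ERSE, chr22:28800591-28800633, minus strand: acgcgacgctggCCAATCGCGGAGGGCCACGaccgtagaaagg
SDF2L1, ERSE-II, chr22:21642102-21642136, plus strand: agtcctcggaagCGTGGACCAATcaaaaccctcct
HERPUD1, ERSE-II, chr16:56932013-56932047, plus strand: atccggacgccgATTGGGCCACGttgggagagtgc
HYOU1, ERSE-II, 2 matches, and UPRE core, chr11:119057262-119057405, minus strand: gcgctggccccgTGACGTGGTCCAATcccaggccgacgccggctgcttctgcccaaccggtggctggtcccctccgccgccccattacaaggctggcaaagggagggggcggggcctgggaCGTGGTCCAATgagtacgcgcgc

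ERSE stood in 27 of 35116 promoters (0.0769%) and in 4 of the 10 members, HSPA5, HSP90B1, CALR and XBP1. ERSE-II stood in 19 promoters (0.0541%) and in 3 members, SDF2L1, HYOU1 and HERPUD1. The UPRE core stood in 256 promoters (0.729%) and in 1 member, HYOU1, where it overlaps the upstream ERSE-II match. Among 85 genes of a wider ER list that had windows, ERSE stood in 5 (CANX, CRELD2, ERO1B, PDIA6 and SERP1), ERSE-II in 0 and the UPRE core in 9. The cyclic AMP element core (TGACGT), whose letters are part of the UPRE core, stood in 2803 promoters (7.98%) and in 2 members, HSPA5 and HYOU1, and in 18 of the 85. The windows of PDIA4, ERN1 and EDEM1 held no ERSE, ERSE-II or UPRE core, which says only that these letters are not in these windows. A match is a description of the letters and not a measurement of binding.

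**Figure D1:**
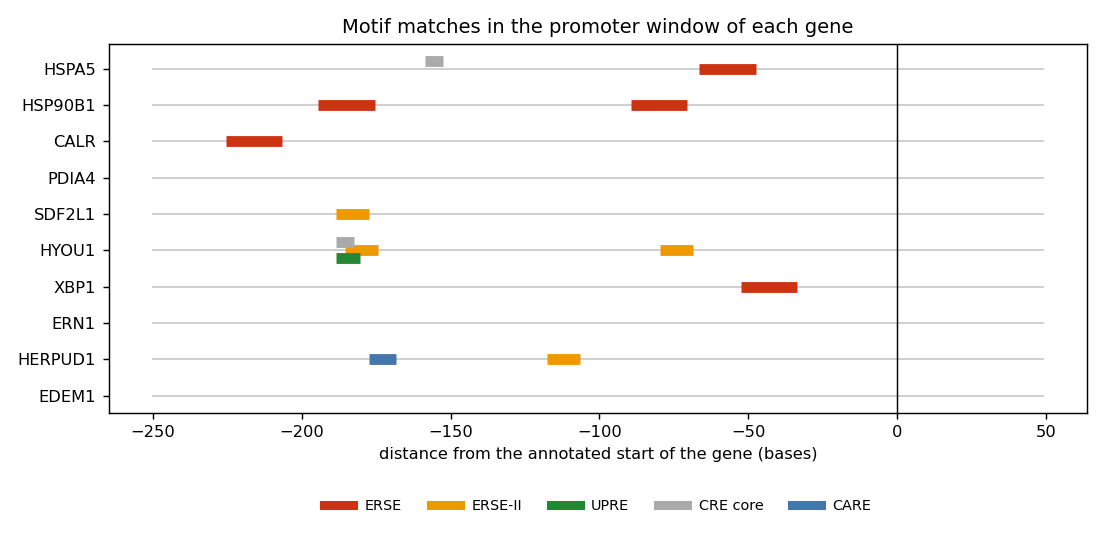
Matches to the searched motifs, coloured by motif, in the promoter windows of the 10 genes (1 row per gene, the first window of PDIA4 and XBP1), by distance in bases from the annotated start (x axis). The ERSE match of HSPA5 runs from -66 to -48 and that of XBP1 from -52 to -34, CARE is the ATF4 motif spelled out with the PERK branch, and PDIA4, ERN1 and EDEM1 have no match.

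The 6 ER lumen chaperones and folding enzymes were not called higher in the embelin samples. Their estimated differences, embelin minus control on the log2 signal scale, were all at or below -0.13 for the brightest probe of each gene, with a median of -0.27, and none passed the test. In a bulk sample, fewer cells of a kind and less RNA per cell cannot be told apart. HSPA5 measured 12.87 and 13.08 in the controls and 12.38 and 13.15 in the embelin samples. The groups overlapped, since embelin replicate 2 was the highest and embelin replicate 1 the lowest of the 4. The difference was -0.21 (SE 0.32, 95% interval -1.08 to 0.67), which is a fold of 0.867 with an interval from 0.472 to 1.59, and limma gave an adjusted p of 0.806. A further HSPA5 probe also overlapped between groups, with 12.89 and 12.66 in the controls, 12.38 and 12.77 with embelin, a difference of -0.20 and a limma adjusted p of 0.726.

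HSP90B1 (GRP94), the lumen's Hsp90, was measured by a bright probe at 16.97 and 17.06 in the controls and at 16.86 and 16.92 with embelin. Both embelin samples lay below both controls, by a small margin, with a difference of -0.13 (SE 0.18, limma adjusted p = 0.775). A dimmer HSP90B1 probe had a positive estimate, 0.26 (SE 0.45), with overlapping groups of 14.68 and 13.47 in the controls and 14.45 and 14.22 with embelin. Leaving out control replicate 1 gave 0.86, and leaving out control replicate 2 gave -0.35. CALR, the calcium-binding lectin chaperone calreticulin, had 14.72 and 14.80 in the controls and 14.54 and 14.50 with embelin. Its 2 embelin values were both under the controls, and its difference was -0.24 (SE 0.17, 95% interval -0.71 to 0.23, limma adjusted p = 0.546).

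PDIA4 (ERp72), a disulfide isomerase, read 14.14 and 14.04 in the controls and 13.42 and 14.12 with embelin. Embelin replicate 1 was lower than the 3 other arrays, which lay close together, and the difference was -0.32 (SE 0.30, limma adjusted p = 0.640). HYOU1 (GRP170), an exchange factor for HSPA5, was also lowest on embelin replicate 1, with 8.89 and 9.46 in the controls and 8.42 and 9.33 with embelin. Its difference was -0.30 (SE 0.40, 95% interval -1.39 to 0.79, limma adjusted p = 0.769). SDF2L1, which works with the HSPA5 co-chaperone DNAJB11, had the lowest estimate of the 10 genes. It measured 16.0 and 15.85 in the controls and 15.62 and 15.25 with embelin, so the groups did not overlap. The difference was -0.49 (SE 0.22, 95% interval -1.08 to 0.10), a fold of 0.713, with a limma adjusted p of 0.353.

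**Figure D2:**
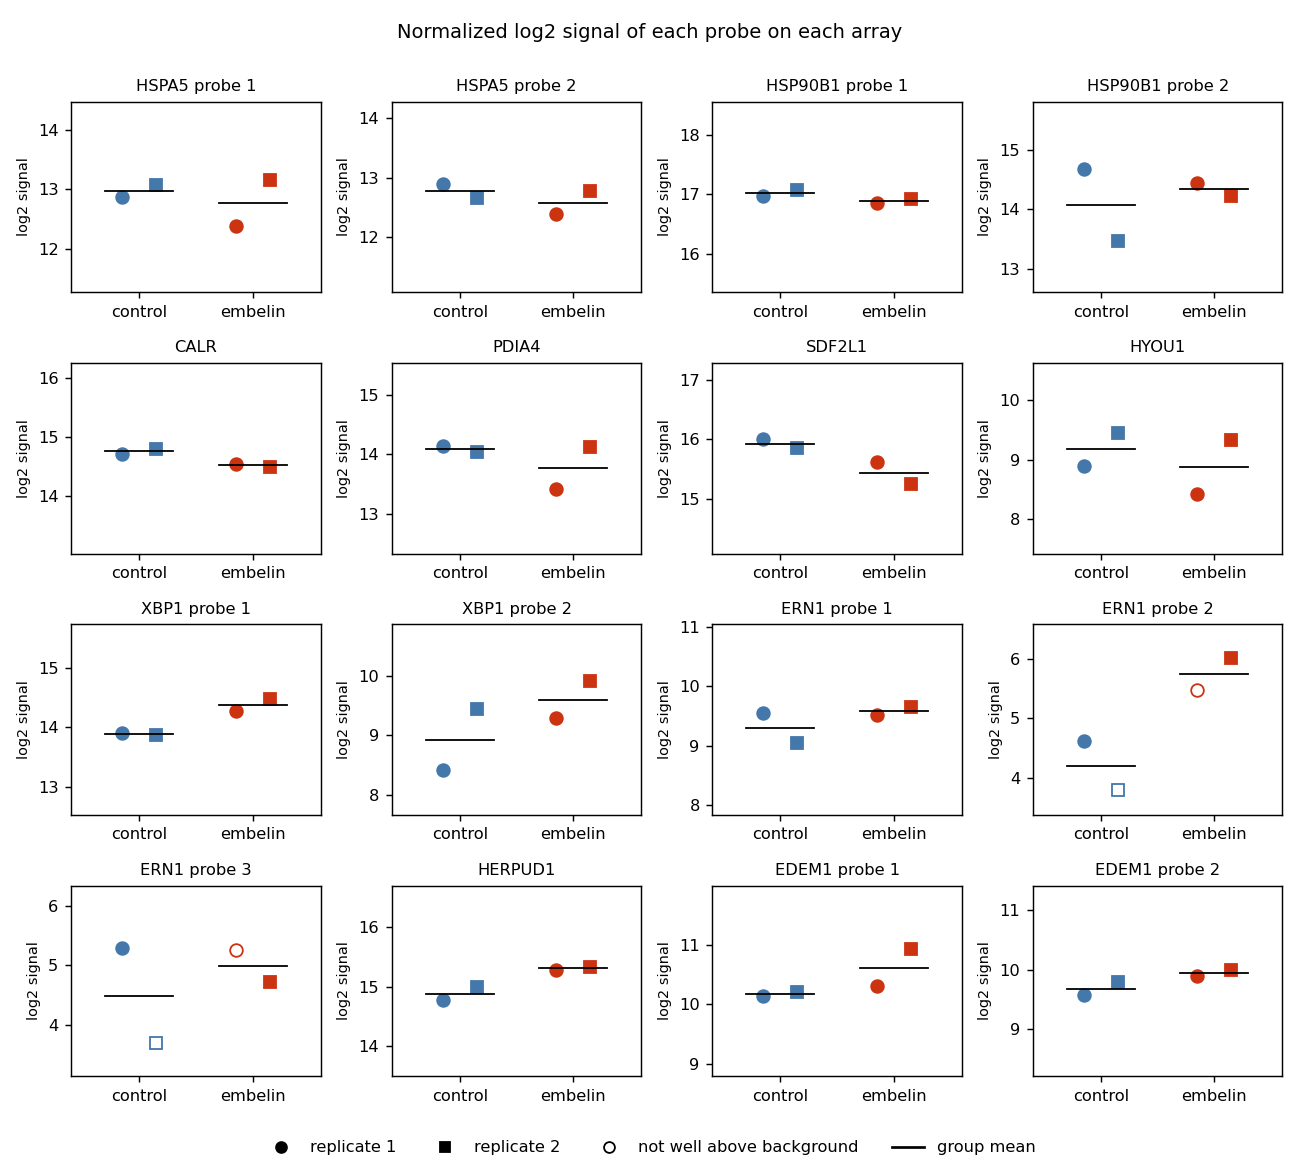
Log2 signal (y axis, each panel with its own position) of the 16 probes of the 10 genes, with controls in blue, embelin samples in red, circles for replicate 1, squares for replicate 2, open symbols for spots not well above background and lines for group means. By the brightest probe (probe 1), both embelin points lie below both controls for SDF2L1, CALR and HSP90B1 and above both for XBP1, HERPUD1 and EDEM1.

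Among the genes of the IRE1 branch and ER-associated degradation, estimates were positive and none passed the test. XBP1, the transcription factor whose mRNA IRE1 cuts, measured 13.90 and 13.88 in the controls and 14.27 and 14.47 with embelin. Both embelin values exceeded both controls, and the difference was 0.48 (SE 0.18, 95% interval -0.015 to 0.98), a fold of 1.40 with an interval from 0.990 to 1.98 and a limma adjusted p of 0.290. A dimmer XBP1 probe had 8.41 and 9.44 in the controls and 9.29 and 9.90 with embelin, which overlap, with a difference of 0.67 (SE 0.44, limma adjusted p = 0.503). Both probes carry the same accession and their positions were not mapped, so the spliced and unspliced forms of XBP1 were not told apart. The first 30 bases of each 60-base probe are shown in lower case to identify them.
XBP1, bright probe: cctttttggcatcctggcttgcctccagtt
XBP1, dim probe: ttttacgagagaaaactcatggccttgtag

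ERN1, which encodes the IRE1 kinase and nuclease, had 3 probes under its name, and they do not all name the same transcript. The bright probe carries an accession (NM_152461) that is not among the current RefSeq accessions of ERN1, so its identity rests on the gene name in the files. It read 9.55 and 9.04 in the controls and 9.52 and 9.66 with embelin, with overlapping groups, a difference of 0.29 (SE 0.25) and a limma adjusted p of 0.608. The probe for the current ERN1 transcript (NM_001433) was well above background only on control replicate 1 and embelin replicate 2, so it did not enter the test. Its values were 4.61 and 3.79 in the controls and 5.48 and 6.02 with embelin, both embelin values being higher, a difference of 1.55. When all probes were tested with no filter on dim ones, its 95% interval ran from 0.24 to 2.86 and its limma adjusted p was 0.790. The third ERN1 probe (AK055561) was above background on the same pair of arrays and overlapped between groups, with a difference of 0.50. Without ERN1, the median difference of the 9 other genes was -0.21.
ERN1, NM_152461 probe: gtattgttcaggatgtgagcgtggcaaatt
ERN1, NM_001433 probe: tgggaagatgctggccccaaaagccttacg
ERN1, AK055561 probe: cagggttaatgggacggcctggtggggcat

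HERPUD1, a membrane scaffold of the degradation machinery, measured 14.77 and 14.99 in the controls and 15.29 and 15.33 with embelin. Both embelin values lay above both controls, and the difference was 0.43 (SE 0.19, 95% interval -0.082 to 0.94), a fold of 1.34, with a limma adjusted p of 0.345. EDEM1, which helps to select misfolded glycoproteins for degradation, read 10.13 and 10.21 in the controls and 10.30 and 10.93 with embelin. The groups did not overlap, though embelin replicate 1 lay near the controls, and the difference was 0.44 (SE 0.28, limma adjusted p = 0.480). Its other probe was also higher in both embelin samples, with a difference of 0.27 (SE 0.19, limma adjusted p = 0.531). The median over XBP1, ERN1, HERPUD1 and EDEM1 was 0.44.

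By limma's test with Benjamini-Hochberg adjustment over all 26145 kept probes, 0 of the 10 genes were called at an adjusted p of 0.05. Of all kept probes 1.08% were called (282), with 0.83% higher (217) and 0.249% lower (65) with embelin, and by the brightest probe 1.19% of all genes were. At an unadjusted p of 0.05, 0 of the 14 kept member probes and 0 of the 10 genes passed, where 17.9% of all kept probes and 18.6% of all genes did. The plain t-test that the methods name, run on these values, had 2 member genes at that unadjusted level and 0 after adjustment. With limma, 3 genes reached that unadjusted level with a trended, robust prior, 2 with normexp background correction, and 1 each with quantile normalization, all 4 arrays above background, 1 probe per gene in the fit and embelin replicate 1 left out, each with 0 after adjustment. None of the 10 genes differed by 2-fold or more, where 12.6% of all genes did. In the 10 genes, both embelin samples were above both controls for 3 (XBP1, HERPUD1, EDEM1), below both for 3 (HSP90B1, CALR, SDF2L1), and overlapping for 4. Non-overlap in either direction was found for 51.8% of all genes with 1 probe each, of which 21.1% of genes were higher and 30.7% lower. The median of the 10 genes was -0.17, against -0.059 for all genes. With 2 against 2 arrays an exact two-sided permutation test of one gene cannot go below p = 0.333.

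The intervals of the main setting bound the differences only as far as the spread between these samples, which may be technical, allows. They do not carry over to every setting. The SE of XBP1's brightest probe was 0.33 with the median shift and 0.25 with no filter on dim probes, against 0.18 here. By the brightest probe of each gene, all 10 intervals included 0 and 9 of 10 lay below a 2-fold rise, that of EDEM1 reaching 1.19. Over the 14 kept probes this held for 11, since the dimmer probes of XBP1 and HSP90B1 reached 1.86 and 1.48. For ERN1 the bound holds only for the probe whose accession is not current, and the NM_001433 probe reached 2.86 when tested without the filter. By the brightest probes only 6 of the 10 lay above a 2-fold fall, those of HSPA5, PDIA4, SDF2L1 and HYOU1 reaching beyond -1. With 2 arrays in each group, precision is limited.

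**Figure D3:**
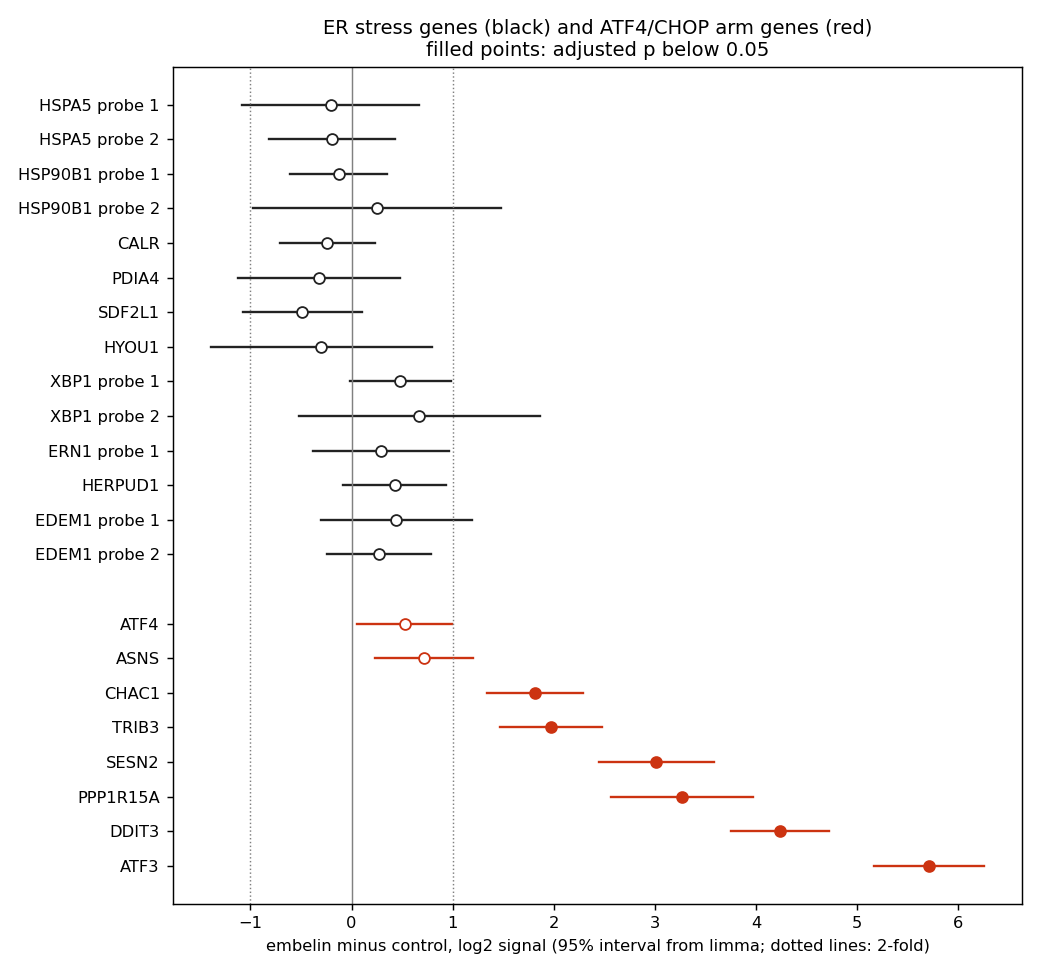
Difference between embelin and control samples (log2 signal, x axis) for the 14 kept probes of the 10 genes (black) and for the 8 genes of the PERK branch (red), with points for estimates, bars for limma's 95% intervals, filled points for an adjusted p below 0.05 and dotted lines at a 2-fold fall and rise. Every black bar crosses 0. The 6 filled points are all in the list named for the PERK branch, though PERK activity was not measured.

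The sign of 3 chaperone estimates depended on 1 array. Embelin replicate 2 exceeded embelin replicate 1 by 0.78 for HSPA5, 0.70 for PDIA4 and 0.91 for HYOU1, and by 0.63 for EDEM1. Over all genes with 1 probe each that gap had a median of 0.12, and 5.1% of them had a gap of 0.7 or more. HSPA5 and HYOU1 reached 0.7, while PDIA4 (0.699) fell just short and EDEM1 did not reach it. Without embelin replicate 1 the differences of HSPA5, PDIA4 and HYOU1 turned to 0.18, 0.027 and 0.16, and the median of the 10 genes to 0.17. With any 1 array left out, XBP1 stayed between 0.39 and 0.58, HERPUD1 between 0.32 and 0.54, CALR between -0.28 and -0.20 and SDF2L1 between -0.67 and -0.30, so that only HSPA5, PDIA4 and HYOU1 of the 10 brightest probes changed sign. The share of probes well above background was also higher on embelin replicate 2 (66.4%) than on embelin replicate 1 (51.2%). Between the controls the genes were divided. By their brightest probes, HSPA5, HYOU1 and EDEM1 were lower on control replicate 1 (66.7%) than on control replicate 2 (50.3%). PDIA4 (14.145 and 14.037) and the further HSPA5 probe (12.888 and 12.656) were higher on control replicate 1. The part of this share in the result was not tested.

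**Figure D4:**
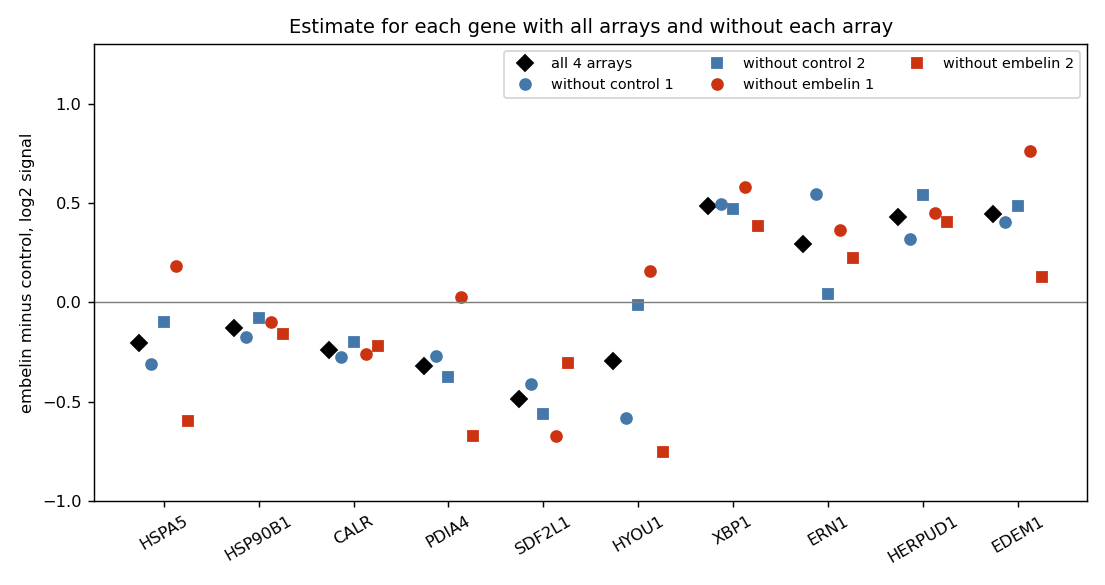
Difference between embelin and control samples (log2 signal, y axis) for the brightest probe of each of the 10 genes, with all 4 arrays (diamonds) and with each array left out in turn (coloured points). HSPA5, PDIA4 and HYOU1 cross 0 when embelin replicate 1 is left out, while the 7 other genes keep their sign.

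Likeness of pattern to HSPA5 was measured as the Euclidean distance between mean-centred log2 values, over 15309 genes above background on all arrays. PDIA4 lay 0.26 from HSPA5 (rank 296) and HYOU1 0.28 (rank 408), while HSP90B1 lay at 0.52 (rank 3649), XBP1 and HERPUD1 at 0.82 and SDF2L1 at 0.89. The 5 nearest were UXS1 (0.055), AGBL3 (0.056), CPSF7 (0.071), the transcript BF895757 (0.074) and MAPK3 (0.084), none of them an ER chaperone. The distances use the same 4 values as the gap between the embelin arrays, so they describe that gap again.

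The wider list held 97 other ER genes, of which 93 were kept. By limma 0 of the 93 were called on their brightest probe, and at an unadjusted p of 0.05 there were 5 higher and 6 lower, where 8.06% and 10.6% of all genes were. Estimates were negative for 63 and positive for 30 (56.1% of all genes were negative), with a median of -0.10 against -0.059 for all genes. The list's 20 kept chaperones, co-chaperones and folding factors had a median of -0.14, and 16 of the 20 were negative. HSPA13, an ER-anchored Hsp70 relative, had the highest estimate among them, 0.90 (SE 0.21, limma adjusted p = 0.144), from 10.82 and 10.51 in the controls and 11.48 and 11.63 with embelin. FKBP14, a collagen-folding prolyl isomerase, had the lowest, -0.76 (limma adjusted p = 0.232), and CRELD2, an ER stress-responsive isomerase, had -0.49 (limma adjusted p = 0.282).

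Of 16 kept disulfide isomerases and ER oxidases, 10 had positive estimates, with a median of 0.023. ERO1A, the oxidase that drives disulfide formation by reoxidising protein disulfide isomerase, had 13.17 and 12.94 in the controls and 14.86 and 15.18 with embelin. Both embelin values lay well above both controls, and the estimate was the highest of the 93 genes, with a difference of 1.96 (SE 0.22, 95% interval 1.38 to 2.55) and a limma adjusted p of 0.0504, just above the threshold of 0.05. The other ERO1A probe rose, with 8.54 and 8.37 in the controls, 10.696 and 11.06 with embelin, a difference of 2.42 and a limma adjusted p of 0.0383. QSOX1, a secreted thiol oxidase, had 0.63 and TXNDC5, a thioredoxin-domain isomerase, -0.60 (limma adjusted p of 0.232 and 0.250).

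In ER-associated degradation, 18 of 24 genes had negative estimates and the median was -0.059. NGLY1, the cytosolic peptide N-glycanase, had 13.03 and 13.15 in the controls and 14.57 and 14.62 with embelin, a difference of 1.502 (SE 0.18, limma adjusted p = 0.0544). Its dimmer probe had 1.79 (limma adjusted p = 0.160). VCP, the ATPase that pulls substrates out of the ER membrane, had -0.59 (limma adjusted p = 0.208) and DERL3 also -0.59 (limma adjusted p = 0.494). ERO1A and NGLY1 passed the threshold under several of the alternative settings, whose values are given with the sensitivity of the results.

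For the sensors and their partners, ATF6 itself measured 12.17 and 12.27 in the controls and 12.08 and 12.28 with embelin, a difference of -0.042 (SE 0.19, limma adjusted p = 0.942). EIF2AK3, which encodes PERK, had 7.87 and 6.72 in the controls and 8.70 and 9.03 with embelin, which do not overlap, and a difference of 1.57 (SE 0.45, limma adjusted p = 0.192). TRAF2, the adaptor through which IRE1 reaches JNK, had -0.71 (SE 0.18, limma adjusted p = 0.160) and WFS1, a calcium-handling ER membrane protein, -0.57 (limma adjusted p = 0.235). Over the 14 kept genes the median was -0.038. In the translocation list, 15 of 19 were negative with a median of -0.15, and the highest and lowest were SEC61G at 0.68 (limma adjusted p = 0.342) and SRPRB at -0.31 (limma adjusted p = 0.636), with SEC61A1 at -0.30 (limma adjusted p = 0.522). The 4 kept transcripts described as targets of IRE1's degradation activity (RIDD) had negative estimates by their brightest probes, with a median of -0.20, as did 56.1% of all genes. BLOC1S1, the best known of them, had -0.27 (SE 0.18, limma adjusted p = 0.512), SCARA3 -0.30 (limma adjusted p = 0.584) and HGSNAT -0.13 (limma adjusted p = 0.855). Another HGSNAT probe had both embelin values above both controls, with 0.36 (limma adjusted p = 0.411). The third HGSNAT probe had -0.36 and a further SCARA3 probe -0.56, both with overlapping groups (limma adjusted p of 0.600 and 0.583).

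The ATF4 and CHOP genes, listed here as the PERK branch, were measured on the same arrays. PERK activity was not measured, and what lay upstream of these genes was not tested. All 8 had both embelin samples above both controls (21.1% of all genes did), and limma called 6 higher (0.889% of all genes were). Their median difference was 2.49. The list was chosen with earlier results of these data known, so these counts describe its genes and are not a test of them. DDIT3 (CHOP) went from 7.21 and 7.28 in the controls to 11.55 and 11.41 with embelin, a rise of 4.24 (SE 0.18, 95% interval 3.75 to 4.72, limma adjusted p = 0.0255), a value tied with ATF3 as the lowest over all kept probes. ATF3 rose by 5.71, PPP1R15A (GADD34, which recruits the eIF2α phosphatase) by 3.27 and SESN2 (a stress-responsive nutrient sensor) by 3.01, with limma adjusted p-values of 0.0255, 0.0309 and 0.0285. By a dimmer probe, ATF3 rose by 5.87 (limma adjusted p = 0.0255), with controls not well above background. Dimmer probes of TRIB3 and ATF4 had 2.51 and 0.69 without passing (limma adjusted p of 0.106 and 0.194). By the brightest probes, TRIB3 rose by 1.97 and CHAC1 by 1.82 (limma adjusted p of 0.0425 and 0.0437), and ATF4 and ASNS had 0.52 and 0.72 without passing (limma adjusted p of 0.245 and 0.161). These calls were lost when any 1 array was left out, where no probe was called, though the difference of DDIT3 stayed between 4.17 and 4.31 (limma adjusted p from 0.0623 without control replicate 1 to 0.198 without embelin replicate 1). The difference between this list and the 10 genes was not tested, and both use the same control samples. In the promoter windows, ERSE and ERSE-II stood in 0 of these 8 genes. The letters TGATGNAAN, the CARE core that ATF4 is known to bind, stood in 3 (ASNS, ATF3 and CHAC1). They also stood in 1 of the 10 members (HERPUD1), 2 of the 85 wider ER genes with windows and 3.61% of all promoters. The 8 genes were listed as ATF4 and CHOP genes, so matches among them are not independent of that choice.

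**Figure D5:**
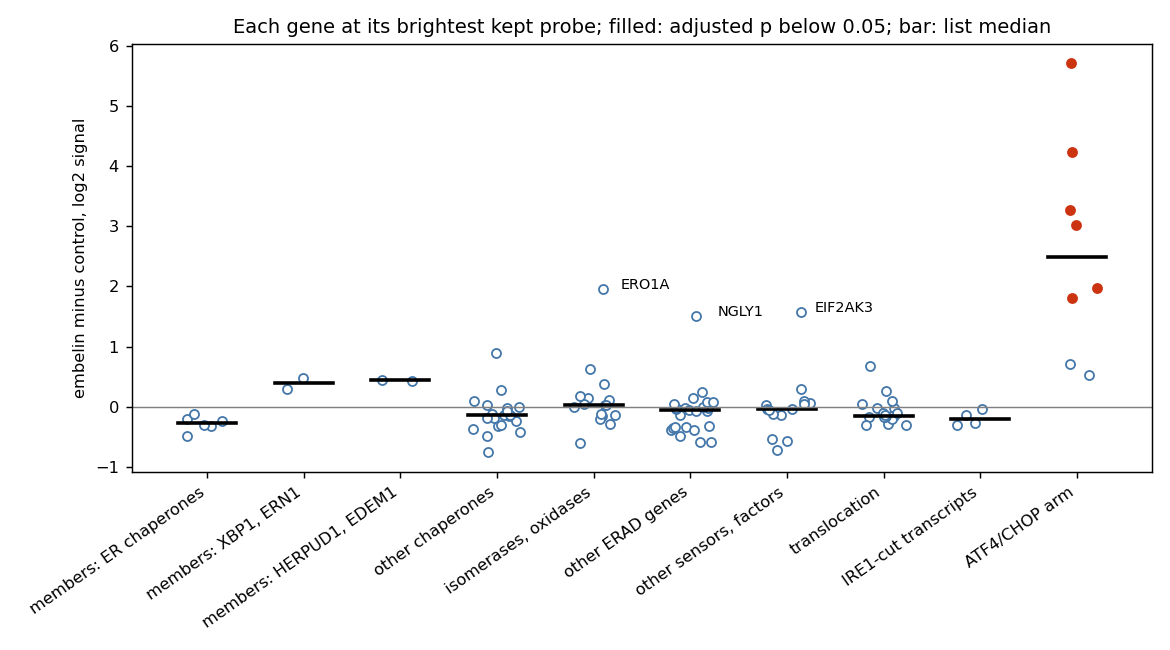
Difference between embelin and control samples (log2 signal, y axis) for each gene's brightest kept probe, by gene list (x axis), with filled points for an adjusted p below 0.05 and a bar for the median of each list. The 10 members lie between -0.49 and 0.48, and the 8 genes listed as the PERK branch (ATF4/CHOP arm) between 0.52 and 5.71.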

How the data were processed

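RNA was hybridised to custom 1-colour Agilent arrays, and per the file headers Feature Extraction 10.7.3.1 gave the deposited intensities (background-subtracted processed signals, linear scale). Spots flagged as outliers were left out. No spot was saturated. Spots of a probe were averaged on the linear scale. Each array was then scaled to its 75th percentile over non-control spots (721, 601, 648 and 739 for control 1, control 2, embelin 1 and embelin 2). The scaled values were floored at 1 and turned to log2. Probes well above background on both arrays of a group were kept (26145 of 50238). Some (514) lacked a value on at least 1 array and were fitted on the rest. Tests used limma 3.58.1 (R 4.3.3), lmFit and eBayes, Benjamini-Hochberg adjusted over all kept probes. A gene was read by its brightest kept probe. Probes were named by accession (28595), symbol (2998), synonym (1176) or the name in the files (17469). Named genes were all probes of the members, called genes of each further list plus its 3 largest differences, and the 5 nearest to HSPA5. ATF6, ATF4, ASNS and the marker genes fall outside this rule and were named after their values were seen. The members and lists were chosen with earlier results of these data known. The fit was tested on simulated data.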

Additional observations from a re-analysis of the deposited data

How the results depend on the processing

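No member was called under any of the alternatives tried, and the lowest adjusted p of any was 0.118, with a trended, robust prior. Over the members, 225 results kept their direction and side of the threshold and 5 turned in sign: HSPA5, PDIA4 and HYOU1 without embelin replicate 1 (ranges with 1 array left out -0.60 to 0.18, -0.67 to 0.027 and -0.75 to 0.16), HSP90B1 to 0.065 as the mean of its probes, and its dimmer probe without control replicate 2 (-0.35 to 0.86). The median of the members ran from -0.22 to 0.17 and that of the wider ER list from -0.18 to 0.011 when 1 array was left out, both highest without embelin replicate 1, and the wider median was -0.22 after a shift to the median. HGSNAT turned without control replicate 2 and without embelin replicate 1 (-0.37 to 0.11). Wider list genes called higher were 2 with normexp, 1 with the median shift, 2 with all 4 arrays above background, 3 with the trended, robust prior (1 lower), 2 with 1 probe per gene and 1 with the mean of probes. ERO1A had adjusted p-values of 0.0216, 0.0312, 0.0208, 0.00218, 0.0449 and 0.0412 in that order, and NGLY1 0.0216, 0.0244, 0.00268 and 0.0454 with normexp, all 4 arrays, the robust prior and 1 probe per gene. Over all probes, those called higher and lower (217 and 65) were 563 and 266 with normexp, 163 and 31 with quantile normalization, 387 and 236 with the median shift, 132 and 26 from the deposited value table, 476 and 292 with all 4 arrays above background, 743 and 553 with the robust prior, 143 and 27 with outlier spots kept, and 221 and 99 with 1 probe per gene. They were 0 and 0 with no filter on dim probes, with array position as a covariate, with the methods' t-test, and with any 1 array left out, where limma takes the lone array to vary like the others. So the 6 calls in the PERK branch list, DDIT3 included (limma adjusted p = 0.505 without the filter), rest on these settings. With the replicate number as a block, 0 and 0 probes were called. The labels do not pair the samples. Across 25631 probes, the deviations of control replicate 1 and embelin replicate 1 from their group means correlated at 0.214. The deviations of replicate 2 mirror these and add nothing further. The median shift moved the median of all probes by -0.11, and the members lay -0.12 from it before and after. The cause of these changes was not tested.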
